A study of Homo sapiens with 96 samples.

Results

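The 44 genes described here encode the proteins that license and fire replication origins, copy DNA and supply its building blocks in S phase. They were chosen by symbol. All 44 have at least 1 probe set on the Affymetrix HG-U133 Plus 2.0 array, 81 of its 54675 probe sets together, and 24 of the genes have more than 1. Where a gene has several, the one with the strongest mean signal on the 96 arrays stands for it. A probe set was tested in a line if its mean signal was above 100 in at least 1 group, which leaves out CHAF1B in OciLy18 and SUDHL4 and ORC2 in REC1, so 43 of the 44 genes were tested in REC1, OciLy18 and SUDHL4 and all 44 in Z138.

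Messenger RNA was measured in 4 established human B-cell lymphoma lines, REC1 and Z138 from mantle cell lymphoma and OciLy18 and SUDHL4 from diffuse large B-cell lymphoma, after 4 h. Each group is 3 arrays. Cells were exposed to whole anti-IgM antibody, to the anti-IgM F(ab')2-fragment, which lacks the Fc part, or to whole anti-IgG, all of which bind the B-cell receptor (BCR), the membrane immunoglobulin of B cells. Other cells received LT20, a mouse antibody to CD20, or rituximab, a chimeric antibody to CD20, and in REC1 there was a group with the F(ab')2-fragment of rituximab as well. A human IgG served as isotype antibody, and untreated cells were the control. The labels give 10 µg/ml for every antibody, while the study's methods describe a lower dose of the anti-IgM fragment. Each treatment was compared with untreated replicates 1 to 3 of its line, except that anti-IgG in OciLy18, Z138 and SUDHL4 was compared with untreated replicates 4 to 6. Comparisons within a line share untreated arrays. SUDHL4 is described in the study as carrying IgG and no IgM. Each line is 1 established line, a model of 1 tumour, and the labels do not say that the 3 arrays of a group come from separate cultures, so a p-value measures the spread between arrays. The differences below are log2 of the signal with the antibody minus log2 of the signal in untreated cells, tested with limma, with p-values adjusted (Benjamini-Hochberg) across every probe set tested in the line, and a gene is called lower or higher at an adjusted p under 0.05.

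In G1 phase the origin recognition complex (ORC1, ORC2, ORC3, ORC6), CDC6 and CDT1 load the MCM2 to MCM7 helicase onto DNA, a step called licensing, and geminin (GMNN) blocks CDT1 once S phase has begun. The kinase CDC7 with CDC45, MCM10 and the GINS complex (GINS1 to GINS3 here) then turns the loaded helicase into a moving fork. At the fork the clamp PCNA, set onto DNA by replication factor C (RFC1 to RFC5), holds the polymerases. Primase (PRIM1) with polymerase alpha (POLA1) starts each strand, replication protein A (RPA1 to RPA3) covers single strands, and FEN1 and LIG1 join Okazaki fragments. Ribonucleotide reductase (RRM1, RRM2), thymidylate synthase (TYMS) and thymidine kinase (TK1) supply nucleotides, CHAF1A and CHAF1B place histones on new DNA, and E2F1 and CDC25A act at the entry into S phase. Many of these genes are transcribed under the control of E2F factors, and BCR ligation is known to stop growth or to drive it, depending on the B cell.

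An E2F motif was frequent in the promoters of these genes and scarce over all genes. RefSeq promoter windows of the GRCh38.p14 build, from 250 bases before to 50 bases after the start site, were found for 39 of the 44 genes. The letters TTTCCCGC, TTTGGCGC, TTTCGCGC or TTTGCCGC stood on either strand in 21 of the 39 genes (53.8%), against 3.99% of 27305 genes in all. Counted by window, of which a gene can have several, they stood in 42.9% of 49 windows and in 3.31% of all windows. The motif CCAAT, on either strand, was in 26 of 39 (66.7%) and in 39.7% of all genes, and TTTGAA, the core of the cell cycle homology region that many mitotic promoters carry, was in 1 of 39, RRM1, and in 18.2% of all genes. In a list of 32 mitotic genes the shares ran the other way, 3 of 28 (10.7%) with the E2F letters and 19 of 28 (67.9%) with TTTGAA. The last 110 bases before the start site of 4 of the genes are given because these are the 3 genes that passed 2-fold in some comparison and GINS2, which had the smallest p in OciLy18. E2F letters are in capitals, on the strand of the gene (a motif on the other strand reads as its reverse complement), and where a gene has several windows the one with the most E2F letters is given.

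CDC7: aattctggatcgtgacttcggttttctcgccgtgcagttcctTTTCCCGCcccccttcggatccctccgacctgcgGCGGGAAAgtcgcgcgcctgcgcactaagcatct
CDT1: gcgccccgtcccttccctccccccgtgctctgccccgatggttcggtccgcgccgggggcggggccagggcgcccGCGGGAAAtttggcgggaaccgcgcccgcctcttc
GINS2: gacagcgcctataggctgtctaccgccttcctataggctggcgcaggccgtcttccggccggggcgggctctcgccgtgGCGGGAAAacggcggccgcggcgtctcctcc
PRIM1: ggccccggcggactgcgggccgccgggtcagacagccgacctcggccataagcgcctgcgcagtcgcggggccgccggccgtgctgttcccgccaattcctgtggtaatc

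The CDC7 stretch (chr1:91501002-91501111, plus strand) holds the motif at positions -68 and -34 from the start site. Those of CDT1 (chr16:88803679-88803788, plus strand) and GINS2 (chr16:85688955-85689064, minus strand) hold it once each, at -35 and -31. That of PRIM1 (chr12:56752324-56752433, minus strand) holds none of these letters. A match shows letters, not a bound factor.

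**Figure D1:**
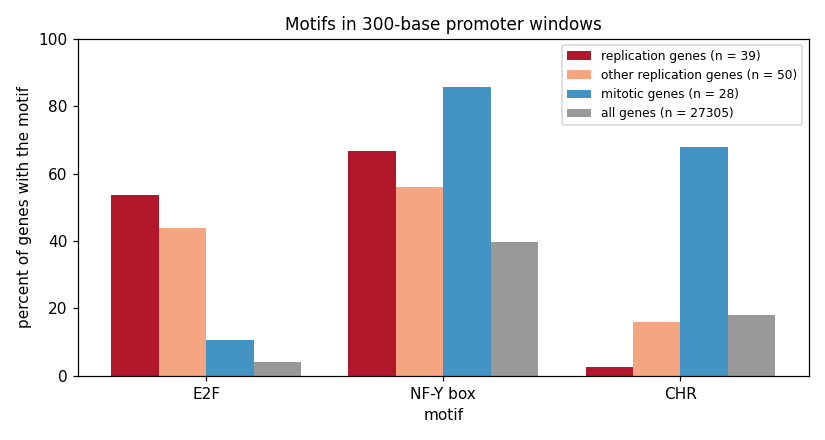
Bars give the percent of genes whose 300-base RefSeq promoter window holds the E2F letters, CCAAT (NF-Y box) or TTTGAA (CHR), for the replication genes, other replication genes, mitotic genes and all genes. The E2F letters stand in 53.8% of the replication genes and 3.99% of all genes, and TTTGAA stands in 2.56% and 18.2%.

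The arrays were scaled alike, with signal totals between 8528613 and 8530013. B cell markers summed to between 4861.4 and 13730.3 on every array. In Z138, however, CD22 was low (11.84 to 39.73), and 4 of the 5 B cell markers had medians over 100. The monocyte and NK cell lists never exceeded 97.9. The T cell list was low too, except in REC1, where it summed to between 675.7 and 1618.3 mostly through CD3D (574.37 to 1393.05). CCND1 and SOX11, markers of mantle cell lymphoma, had medians over 100 in REC1 and Z138 only, as labelled, while of the 3 germinal centre markers all 3 passed 100 in SUDHL4, 2 in OciLy18, BCL6 alone in REC1 and none in Z138. A lower signal in such bulk RNA can mean fewer cells in S phase or less RNA in each cell, and these cannot be told apart.

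In OciLy18 the replication genes fell as a block on BCR ligation. With anti-IgM 38 of 43 were lower and 0 higher at an adjusted p under 0.05, with a median log2 change of -0.50, where 28.9% of all 7780 genes tested were lower and their median was -0.04. All 6 origin firing genes, 12 of 13 licensing genes, 5 of 6 of the clamp and its loader, 8 of 9 of the polymerase group, both Okazaki genes and 3 of 4 nucleotide genes were lower. The fragment gave 36 lower and 1 higher, a median of -0.48, beside 33.1% of all genes lower and 20% higher.

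GINS2, a subunit of the fork helicase, was the steepest with anti-IgM. Its signals were 567.6, 600.2 and 569.5 with anti-IgM and 552.9, 603.2 and 534.1 with the fragment, against 1127, 1139 and 1087 in untreated cells, a log2 change of -0.95 (SE 0.06, adjusted p = 1.11e-11) and a log2 change of -0.99 (SE 0.06, adjusted p = 4.58e-12). The 6 treated arrays lay between 534.1 and 603.2 and the untreated ones between 1087 and 1139, far apart with little spread. CDC45, which joins GINS on the helicase, had 200, 166.3 and 135.2 with anti-IgM and 154.2, 159.6 and 124.7 with the fragment, against 275.4, 233.7 and 304.4 in untreated cells (-0.71 and -0.89). CDC6, the loader of the MCM helicase, had 255.2, 253.9 and 279.3 with anti-IgM and 232.6, 256.9 and 245.5 with the fragment, against 392.1, 470.4 and 407.5 in untreated cells (-0.68 and -0.79). No treated array of CDC45 or CDC6 reached the lowest untreated one. The MCM helicase subunits fell less, MCM4 by the most: 945.7, 915.4 and 913.0 with anti-IgM, against 1286, 1635 and 1509 in untreated cells (log2 change -0.67, SE 0.08, adjusted p = 4.12e-07). GINS1 (-0.77), CDC7 (-0.70), RFC2 (-0.69), POLE2 (-0.65), RFC3 (-0.64) and TK1 (-0.62) were also among those lower with anti-IgM.

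CDT1, which brings the MCM helicase to origins, was the only one of the 44 to pass 2-fold in OciLy18, and only with the fragment, where 1.97% of all genes were more than 2-fold lower. Its signals were 228.9, 262.7 and 282.9 with the fragment and 334.3, 254.9 and 337.6 with anti-IgM, against 459.0, 713.1 and 504.8 in untreated cells, a log2 change of -1.09 (SE 0.16, adjusted p = 3.73e-06), 2.13-fold lower, and a log2 change of -0.84 (SE 0.16, adjusted p = 0.000117). The groups did not overlap, but the untreated arrays were wide apart, and replicate 2 was the highest. A second CDT1 probe set gave -0.80 with the fragment and -0.61 with anti-IgM. Exceptions to the fall were TYMS, with 4696, 4781 and 4727 with anti-IgM against 5057, 4498 and 5249 in untreated cells (-0.06, not past the test), and FEN1. FEN1, the nuclease that trims Okazaki flaps, had 1208, 1188 and 1302 with anti-IgM and 1708, 1789 and 1846 with the fragment, against 1455, 1569 and 1327 in untreated cells, with changes of -0.23 and 0.30. Its fall with the whole antibody was -0.05 against the other untreated triplicate and -0.06 against the isotype arrays, neither past the test, while the rise with the fragment passed against both.

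**Figure D2:**
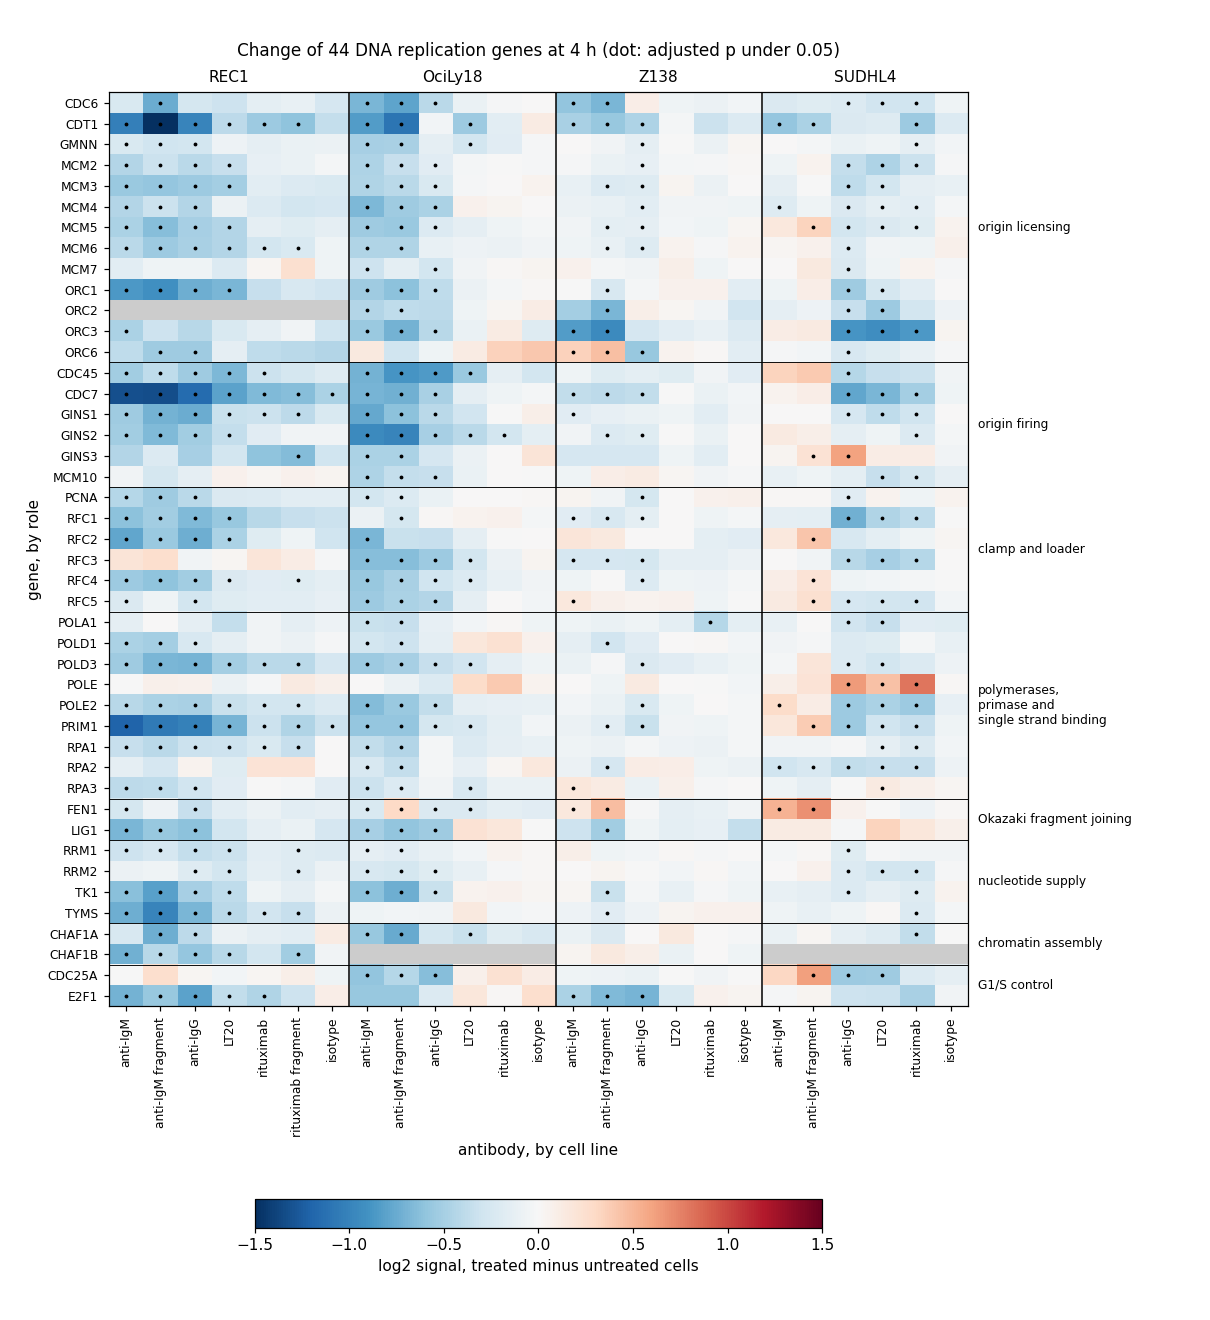
Each cell is the log2 signal with an antibody minus that in untreated cells for 1 of the 44 genes (rows, by role) in 1 of 25 comparisons (columns, by line), blue lower and red higher, with a dot where the adjusted p is under 0.05 and grey where the gene was not tested. The blue block covers 38 of 43 genes with anti-IgM in OciLy18 and 31 of 43 in REC1, against 8 of 44 in Z138 and 3 of 43 in SUDHL4.

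Anti-IgG in OciLy18 lowered 24 of 43 and raised 0 (median -0.26), where 15% of all genes were lower, and the count was 15 of 43 when the isotype arrays served as reference, where 27.1% of all genes were lower. LT20 lowered 11 of 43 (median -0.10), beside 13.2% of all genes, and 7 against the isotype arrays, beside 9.77%. The count was 24 against the other untreated triplicate, a reference for which the share of all genes is not given here. It was 4 without LT20 replicate 1, 5 without LT20 replicate 2 or untreated replicate 2, and 7 without untreated replicate 1. With anti-IgG, GINS2 had 899.4, 909.5 and 927.7, against 1260, 1306 and 1296 in its untreated cells (-0.50), and CDC45 had 164.0, 212.8 and 133.4, against 305.7, 303.2 and 296.7 (-0.85). Against the isotype arrays CDC45 passed, and GINS2 did not (-0.15, adjusted p = 0.0547). CDT1, in contrast, had 892.4, 733.3 and 815.5 with anti-IgG, against 873.5, 814.0 and 821.7 in untreated cells (-0.04), groups that overlap. Rituximab lowered GINS2 alone, with 892.5, 934.2 and 944.0, against 1127, 1139 and 1087 in untreated cells (log2 change -0.27, SE 0.06, adjusted p = 0.0138), where 1.23% of all genes were lower, but against the isotype arrays GINS2 was -0.13 (adjusted p = 0.433) and 0 of 43 passed by limma, 5 at an unadjusted p under 0.05. The isotype antibody changed 0 of 43 by limma, 5 at an unadjusted p under 0.05, and lowered 0% of all genes.

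REC1 showed the steepest single falls. With anti-IgM 31 of 43 were lower and 0 higher (median -0.44), where 34% of all 7804 genes tested were lower with a median of -0.05. The fragment gave 31 lower (median -0.51, beside 34.3% of all genes) and anti-IgG 33 (median -0.49, beside 33.4%), with 0 higher in each. Past 2-fold were CDC7, CDT1 and PRIM1 with anti-IgM and with the fragment, and CDC7 and PRIM1 with anti-IgG, beside 8.01%, 8.53% and 7.23% of all genes lower by as much, so the 2-fold counts were below the share over all genes while the counts at any size were above it.

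CDC7, the kinase that fires licensed origins, had 77.8, 73.4 and 91.4 with anti-IgM, 83.3, 69.2 and 89.4 with the fragment and 101.6, 71.9 and 102.7 with anti-IgG, against 209.6, 200.7 and 194.8 in untreated REC1. These were log2 changes of -1.32, -1.33 and -1.15 (SE 0.13 each), the first with an adjusted p of 1.25e-08. No treated array overlapped the untreated ones, and 7 of the 9 were under 100, near the limit set on signal. PRIM1, the catalytic primase subunit, had 342.9, 388.4 and 331.9 with anti-IgM, 387.0, 404.6 and 373.7 with the fragment and 417.5, 373.2 and 421.4 with anti-IgG, against 763.3, 822.2 and 848.2 in untreated cells. Its changes were -1.20 (SE 0.08, adjusted p = 2.24e-11), -1.06 and -1.01, with narrow groups at high signal. CDT1 had 340.8, 298.7 and 313.0 with anti-IgM, 196.1, 234.8 and 260.6 with the fragment and 262.6, 348.6 and 365.8 with anti-IgG, against 716.3, 604.2 and 612.5 in untreated cells (-1.02, -1.49 and -0.99). Its second probe set read -0.70, -1.15 and -0.53, lower in each case, by less.

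**Figure D3:**
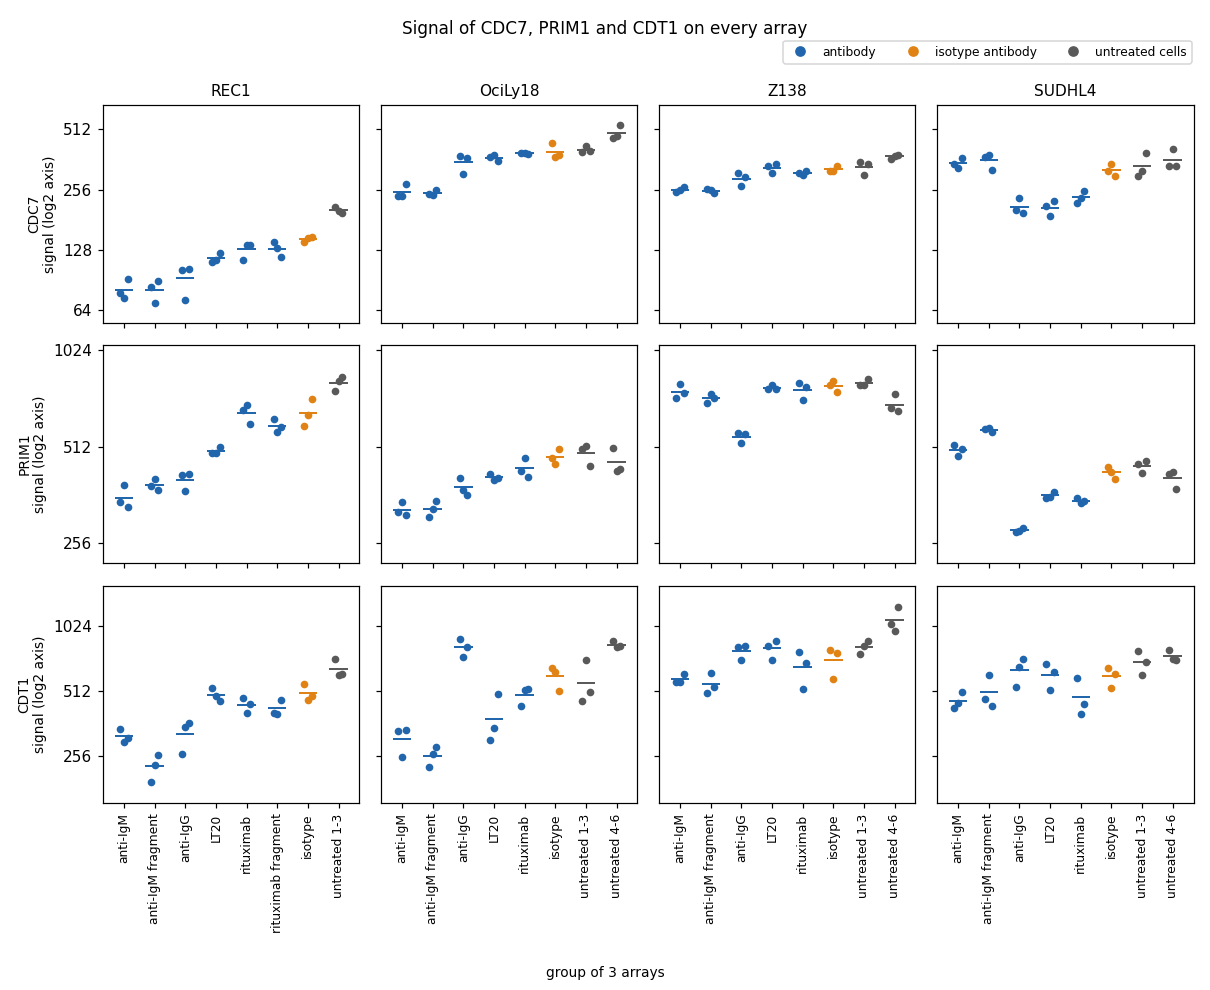
Points are the signals of CDC7, PRIM1 and CDT1 on single arrays (vertical axis, log2 scale) in each group of 3 arrays (horizontal axis) of the 4 lines, with a bar at the group mean. In REC1 the CDC7 arrays with anti-IgM lie between 73.4 and 91.4 and the untreated ones between 194.8 and 209.6.

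By role, REC1 with anti-IgM had 9 of 12 licensing genes, 4 of 6 firing genes, 5 of 6 of the clamp and loader, 6 of 9 of the polymerase group, both Okazaki genes and 3 of 4 nucleotide genes lower. ORC1, the large origin recognition subunit, had 217.7, 221.2 and 183.8, against 345.1, 343.7 and 445.6 in untreated cells (log2 change -0.86, SE 0.16, adjusted p = 7.25e-05). TYMS, which makes thymidylate, had 1512, 1516 and 1563 with anti-IgM and 1267, 1274 and 1298 with the fragment, against 2561, 2712 and 2341 (-0.73 and -0.99). Both genes were lower on every treated array, TYMS by more with the fragment. RFC2 (-0.78), CHAF1B (-0.72), E2F1 (-0.71), LIG1 (-0.68), TK1 (-0.63) and RFC1 (-0.61) were also lower, as were MCM2 to MCM6, between -0.56 for MCM3 and -0.41 for MCM6. MCM7 (-0.16), POLA1 (-0.14), POLE (-0.01) and RFC3 (0.19) did not pass. RFC3 had 636.3, 752.2 and 615.1 with anti-IgM, against 606.9, 527.2 and 613.5 in untreated cells, all treated arrays slightly above.

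The antibodies to CD20 lowered fewer genes in REC1, and 0 rose. LT20 lowered 23 of 43 (median -0.31, beside 23.5% of all genes), rituximab 11 (median -0.16, beside 15.3%) and its fragment 14 (median -0.18, beside 19.3%), or 8 without its replicate 3. The isotype antibody itself lowered CDC7 and PRIM1, 2 of 43, where it lowered 8% of all genes. CDC7 had 111.7, 113.7 and 122.7 with LT20, 114.3, 135.0 and 135.9 with rituximab, 139.2, 131.3 and 117.7 with its fragment and 140.1, 146.2 and 148.8 with the isotype antibody, against 209.6, 200.7 and 194.8 in untreated cells. PRIM1 had 490.8, 490.6 and 510.7 with LT20, 665.4, 690.2 and 600.6 with rituximab and 594.4, 643.6 and 722.3 with the isotype antibody, against 763.3, 822.2 and 848.2. In both genes the isotype arrays lay below all untreated arrays, and those of rituximab lay below the isotype arrays in CDC7 and among them in PRIM1. With the isotype arrays as reference, 24 of 43 were lower with anti-IgM, 25 with the fragment and 24 with anti-IgG, beside 25.2%, 28.4% and 23.5% of all genes. The same reference left 10 with LT20 (9.94% of all genes), 1 with rituximab (0.231%) and 3 with the rituximab fragment (3.65%). With anti-IgM, CDC7 was lower than with the isotype antibody (log2 difference -0.85, adjusted p = 1.69e-05), and so was PRIM1 (-0.88, adjusted p = 9.68e-09).

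In Z138 the response was split among the genes. Anti-IgM lowered 8 of 44 and raised 4 (median -0.07), beside 19.3% of all 7603 genes lower and 23.6% higher, and 8 of 44 is close to that share of lower genes. Against the other untreated triplicate 14 were lower, a reference for which the share of all genes is not given here. Against the isotype arrays 6 were lower and 6 higher (median -0.04), beside 16.7% and 27% of all genes. The fragment lowered 19 and raised 2 (median -0.12), beside 22.9% and 28.3% of all genes, and anti-IgG lowered 18 and raised 0 (median -0.11), beside 26.3% lower. Against the isotype arrays the fragment lowered 18 and raised 3, beside 22.3% and 32.4% of all genes. With anti-IgG 23 were lower and 7 higher than in the isotype arrays, beside 31.2% and 33.6% of all genes. RFC2 (0.84), POLE (0.60) and CDC6 (0.44) were among the 7. In these genes untreated replicates 4 to 6 were themselves above replicates 1 to 3, by 0.68, 0.42 and 0.30.

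Licensing genes held the largest falls from untreated replicates 1 to 3 in Z138 with both forms of anti-IgM. ORC3, a subunit of the origin recognition complex, had 118.7, 154.4 and 167.9 with anti-IgM and 141.5, 142.8 and 119.4 with the fragment, against 286.3, 289.3 and 214.1 in untreated cells (log2 change -0.84, SE 0.14, adjusted p = 5.82e-05, and -0.96). CDC6 had 232.3, 237.6 and 237.6 with anti-IgM and 221.8, 231.3 and 209.3 with the fragment, against 360.7, 361.6 and 343.4 in untreated cells (-0.59 and -0.69). Neither gene overlapped between groups with either form of anti-IgM. In ORC3, however, untreated replicates 4 to 6 minus 1 to 3 were themselves at -0.47 (adjusted p = 0.012), so its falls are smaller against that triplicate. ORC3 was -0.64 with anti-IgM and -0.76 with the fragment against the isotype arrays, both past the test. With anti-IgG the picture differed: CDC6 had 447.5, 444.3 and 516.8, against 469.6, 447.1 and 396.5 in its untreated cells (0.10), and the anti-IgG change minus the anti-IgM change was 0.69 (adjusted p = 1.27e-05). ORC6, another origin recognition subunit, had 1521, 1509 and 1501 with anti-IgM against 1254, 1125 and 1217 (0.34), and 1264, 757.0 and 1193 with anti-IgG against 1534, 1355 and 1806 (-0.57). The changes differed by -0.91 (adjusted p = 0.00113), but untreated replicates 4 to 6 were themselves 0.38 above replicates 1 to 3, and anti-IgG replicate 2 was far below the others of its group. ORC6 with anti-IgM was -0.04 against the other triplicate, and with anti-IgG it was -0.20 against the other triplicate and -0.04 against the isotype arrays (adjusted p = 0.801). E2F1, the S phase transcription factor, was lower with anti-IgM (-0.48), the fragment (-0.66) and anti-IgG (-0.70), and so were CDC7 (-0.37, -0.39 and -0.37) and CDT1 (-0.49, -0.57 and -0.46). For CDT1 the anti-IgM change was -0.28 against the isotype arrays (adjusted p = 0.0807), with anti-IgG the direction turned to 0.15, and the second CDT1 probe set passed with the fragment alone of these 3 (-0.48). LT20 changed 0 of 44 and the isotype antibody 0 of 44 by limma, 3 and 2 at an unadjusted p under 0.05, beside 1.67% and 0% of all genes lower. Rituximab lowered POLA1 alone (289.5, 250.4 and 246.0, against 371.7, 342.8 and 343.4 in untreated cells, -0.43), beside 1.28% of all genes, but against the isotype arrays POLA1 was -0.28 (adjusted p = 0.0882) and 0 of 44 passed by limma, 3 at an unadjusted p under 0.05.

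**Figure D4:**
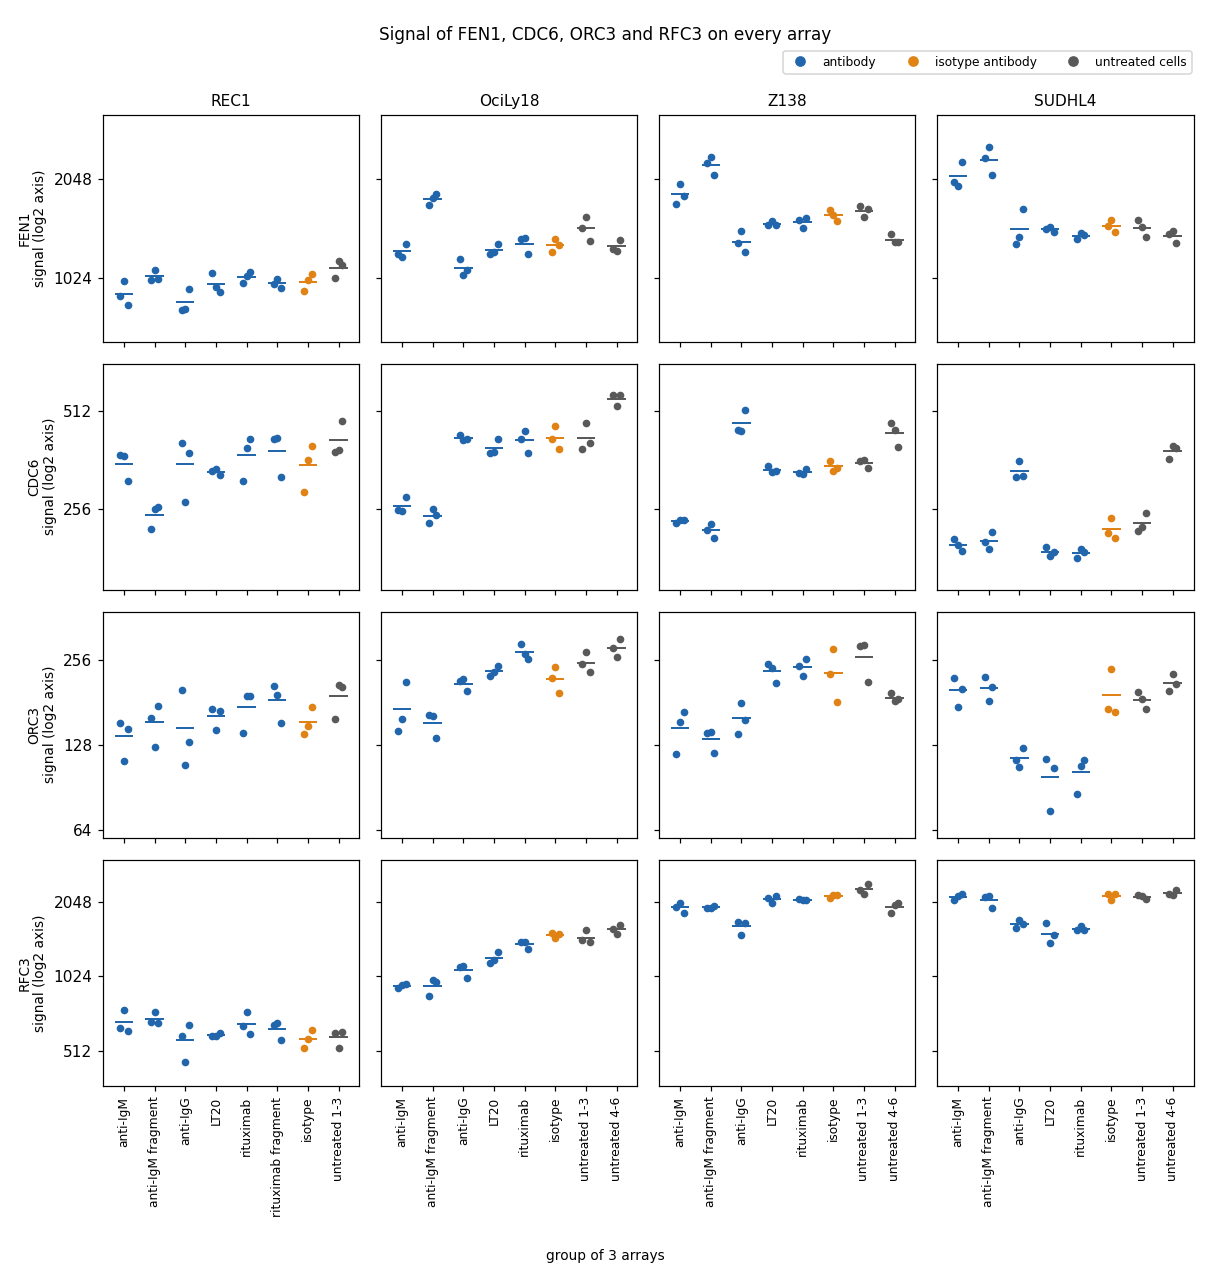
Points are the signals of FEN1, CDC6, ORC3 and RFC3 on single arrays (vertical axis, log2 scale) in each group of 3 arrays (horizontal axis) of the 4 lines, with a bar at the group mean. FEN1 is above all untreated arrays with the anti-IgM fragment in OciLy18, Z138 and SUDHL4, and ORC3 is low in SUDHL4 with anti-IgG, LT20 and rituximab.

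In SUDHL4 more of the genes fell with anti-IgG, LT20 and rituximab than with either form of anti-IgM. Anti-IgM lowered 3 of 43 and raised 2 (median 0.00), beside 5.13% of all 7177 genes lower and 6.12% higher, and the fragment lowered 2 and raised 8 (median 0.04), beside 12.6% and 15.9%. Anti-IgG lowered 27 and raised 2 (median -0.22), beside 36.1% lower and 19.6% higher, and against the isotype arrays it lowered 20 and raised 9, beside 37.2% and 29.4%. LT20 lowered 22 and raised 2 (median -0.22), beside 37.3% and 17.2%, and rituximab lowered 22 and raised 1 (median -0.20), beside 30.4% and 19.2%. Set against the isotype arrays, LT20 lowered 18 and raised 1, beside 34.2% and 18.7%, and rituximab lowered 19 and raised 1, beside 27.3% and 20.8%. The isotype antibody changed 0 of 43 by limma, and 0 at an unadjusted p under 0.05, where 0.0139% of all genes were lower.

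ORC3 fell the most with each of these 3 antibodies. It had 112.9, 106.5 and 125.2 with anti-IgG, against 198.3, 229.5 and 211.0 in untreated replicates 4 to 6 (log2 change -0.89, SE 0.15, adjusted p = 1.65e-05). It had 114.4, 74.8 and 106.0 with LT20 and 85.3, 108.0 and 113.2 with rituximab, against 197.9, 185.6 and 171.4 in replicates 1 to 3 (-0.93 and -0.86). All treated arrays lay below all untreated ones, some under the signal limit of 100. CDC7 had 202.6, 232.2 and 195.1 with anti-IgG, against 337.6, 407.9 and 334.3 (-0.78), and 211.6, 189.2 and 223.2 with LT20, against 300.8, 317.5 and 390.4 (-0.69). With anti-IgG, RFC1, the large clamp loader subunit (-0.72), PRIM1 (-0.54) and POLE2, a subunit of polymerase epsilon (-0.54), were lower too, and 11 of 13 licensing genes. Of those 11, CDC6 (0.59), MCM7 (0.62), MCM5 (0.17), ORC1 (0.18) and ORC6 (0.01) had no negative change against the isotype arrays, the first 3 of them past the test as higher. In CDC6, MCM7 and MCM5 untreated replicates 4 to 6 were themselves above replicates 1 to 3, by 0.74, 0.81 and 0.50. MCM2 and MCM3 were negative against the isotype arrays but did not pass. POLE, the catalytic subunit of that polymerase, went up, with 84.4, 82.2 and 80.5 with rituximab against 48.0, 43.0 and 51.7 in untreated cells (0.80), and 151.5, 147.0 and 137.8 with anti-IgG against 72.2, 116.8 and 96.6 (0.64). These are low signals, the untreated triplicates themselves differed by 0.98 in POLE, and the rituximab change was -0.18 against the other triplicate. GINS3 rose with anti-IgG, 504.6, 482.6 and 475.6 against 332.5, 316.1 and 319.5 in untreated cells (log2 change 0.60, SE 0.07, adjusted p = 2.27e-07), while GINS1 was lower (-0.25).

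With anti-IgM, FEN1 rose the most in SUDHL4, beside POLE2 (0.27), while CDT1 (-0.58), RPA2 (-0.30) and MCM4 (-0.19) were lower. Against the isotype arrays CDT1 (-0.37, adjusted p = 0.0927), RPA2 (-0.22, adjusted p = 0.11) and MCM4 (-0.16, adjusted p = 0.0726) did not pass, and by limma 0 genes were lower and 3 higher, 13 at an unadjusted p under 0.05. The signals of FEN1 were 1998, 1943 and 2311 with anti-IgM and 2374, 2553 and 2101 with the fragment, against 1540, 1460 and 1361 in untreated cells (log2 change 0.52, SE 0.08, adjusted p = 0.000116, and 0.69, SE 0.08, adjusted p = 7.25e-07). All 6 were above the untreated arrays, while the isotype arrays had 1478, 1539 and 1415. CDC25A, the phosphatase that opens S phase, had 227.6, 248.5 and 250.2 with the fragment, against 152.9, 146.3 and 175.4 (0.62), but the other untreated triplicate had 245.1, 261.9 and 249.5, against which the change was -0.06. MCM5 (0.33) and RFC2 (0.42) also turned, to -0.17 and -0.66, against that triplicate. PRIM1 (0.38), RFC5 (0.24), GINS3 (0.22) and RFC4 (0.21) were higher with the fragment as well, and CDT1 (-0.47) and RPA2 (-0.24) lower, though not past the test against the isotype arrays (-0.26 and -0.17).

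**Figure D5:**
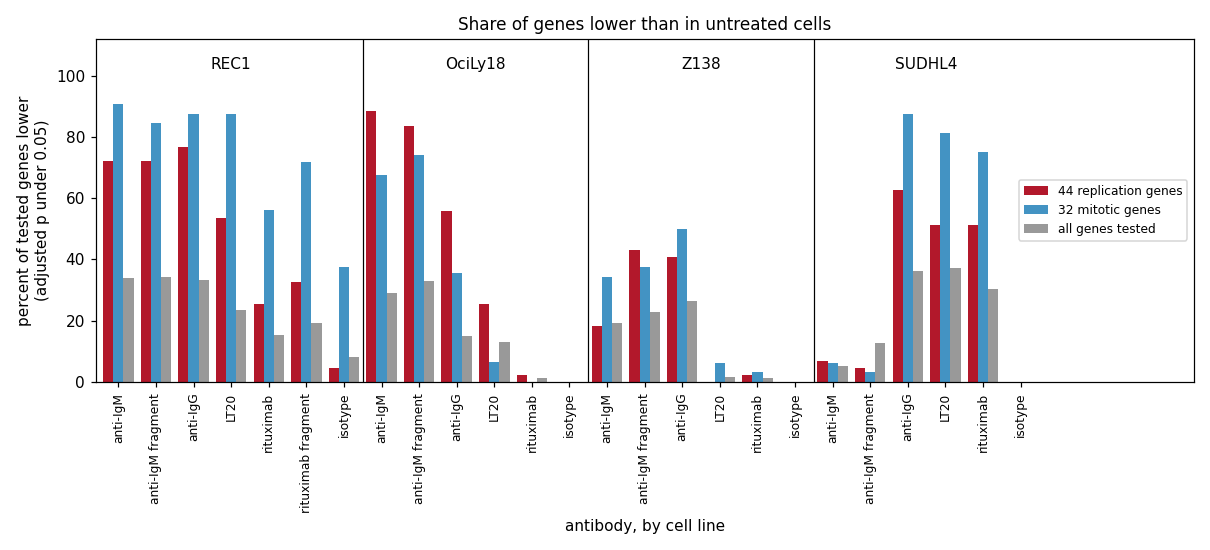
Bars give the percent of tested genes lower than in untreated cells at an adjusted p under 0.05 (vertical axis) for the 44 replication genes, 32 mitotic genes and all genes, in each of 25 comparisons (horizontal axis, by line). In OciLy18 with anti-IgM 38 of 43 replication genes and 21 of 31 mitotic genes are lower, and in REC1 31 of 43 and 29 of 32.

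By role, all 6 MCM helicase genes were lower in OciLy18 with anti-IgM. MCM6 had 1954, 1886 and 1936 with anti-IgM, against 2749, 2610 and 2510 in untreated OciLy18 (-0.45), and MCM3 had 1248, 1222 and 1327, against 1637, 1755 and 1795 (-0.45). In SUDHL4 with anti-IgG all 6 were lower than in untreated replicates 4 to 6, but against the isotype arrays MCM4 and MCM6 alone were lower, MCM2 (-0.18, adjusted p = 0.08) and MCM3 (-0.08, adjusted p = 0.25) did not pass, and MCM5 (0.17, adjusted p = 0.03) and MCM7 (0.62, adjusted p = 7.51e-07) were higher. With LT20 in SUDHL4 MCM2 (1189, 897.3 and 934.0, against 1341, 1389 and 1407 in untreated cells) had -0.46. In Z138 the same genes changed by little, none past the test with anti-IgM and MCM3 the most with the fragment (-0.21), which turned to 0.15 against the other untreated triplicate. MCM7 passed in OciLy18 with anti-IgM (-0.31) and anti-IgG (-0.27), and in no REC1 comparison. ORC1 in REC1 was lower with LT20 too (219.3, 228.5 and 249.7, against 345.1, 343.7 and 445.6 in untreated cells, -0.69), and in SUDHL4 with anti-IgG it read -0.53 but 0.18 against the isotype arrays. Geminin, the inhibitor of CDT1, fell in OciLy18 with anti-IgM (-0.50) and less in REC1 (-0.23).

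Among the firing genes GINS1 fell in REC1 with all 6 antibodies, the isotype aside. It had 556.3, 583.0 and 565.0 with anti-IgG, 688.5, 747.5 and 842.6 with LT20 and 825.1, 709.8 and 759.8 with rituximab, against 944.7, 1037 and 875.1 in untreated cells (-0.74, -0.33 and -0.32). The anti-IgG arrays were the lowest, and those of LT20 and rituximab lay between them and the untreated arrays. Against the isotype arrays the rituximab change of GINS1 was -0.09 (adjusted p = 0.788). CDC45 in REC1 was lowest with LT20, 168.0, 212.7 and 195.6 against 293.0, 304.1 and 317.5 in untreated cells (-0.67). MCM10, which binds the helicase as it is switched on, was lower in OciLy18 with anti-IgM (-0.46) and in SUDHL4 with LT20 (-0.34, or -0.20 with an adjusted p of 0.0554 against the isotype arrays), while in REC1 anti-IgM gave -0.05, not past the test.

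PCNA, the sliding clamp, had 1933, 1868 and 2180 with the anti-IgM fragment, against 2841, 2829 and 2936 in untreated REC1 (-0.53). In OciLy18 with anti-IgM it fell by less (-0.27), and in Z138 it was lower with anti-IgG alone (-0.26). Its loader was uneven between lines. RFC4 fell in REC1 (1545, 1380 and 1405 with anti-IgM against 2058, 2114 and 2119 in untreated cells, -0.54) and in OciLy18 (-0.57), and rose in SUDHL4 with the fragment. RFC3 fell in OciLy18 (921.0, 950.4 and 952.5 with anti-IgM against 1433, 1571 and 1405) and in SUDHL4 with LT20 (1680, 1394 and 1504 against 2175, 2157 and 2101, -0.50), and in 0 REC1 comparisons. RFC1 was lower in REC1 (249.5, 149.7 and 275.7 with anti-IgG against 338.9, 311.2 and 388.6, -0.66) and had -0.09 in OciLy18 with anti-IgM, not past the test.

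In the polymerase group POLD3, a subunit of polymerase delta, fell in REC1 with all 6 antibodies, the isotype aside. It had 286.7, 219.6 and 310.3 with anti-IgG and 256.8, 374.0 and 373.0 with rituximab, against 437.9, 426.8 and 447.8 in untreated cells (-0.70 and -0.41), and the rituximab change was -0.16 against the isotype arrays (adjusted p = 0.75). In OciLy18 with anti-IgM it read -0.54, and the anti-IgG value of -0.34 there turned to 0.06 against the other untreated triplicate. POLE2 had 326.7, 297.7 and 331.6 with anti-IgM, against 483.9, 502.9 and 511.5 in untreated OciLy18, and 413.0, 424.5 and 374.0 with rituximab, against 588.9, 568.1 and 603.4 in untreated SUDHL4 (-0.65 and -0.54). The groups lay apart in both lines. RPA1, the large single strand binding subunit, fell in REC1 with anti-IgM (-0.35) and in OciLy18 (-0.37), and RPA2 was lower in SUDHL4 with all 5 antibodies, the isotype aside, between -0.37 with anti-IgG and -0.24 with the fragment, though against the isotype arrays it passed with LT20 and rituximab alone. LIG1, the ligase, had 259.1, 264.6 and 223.1 with anti-IgM, against 310.8, 348.4 and 396.0 in untreated OciLy18 (-0.50), and did not pass in any SUDHL4 comparison.

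Of the nucleotide genes, TK1 and TYMS changed the most. TK1, which salvages thymidine, had 202.2, 203.3 and 251.2 with the fragment, against 334.7, 359.6 and 390.3 in untreated OciLy18 (-0.73), and 237.2, 228.5 and 260.6, against 433.8, 445.1 and 396.1 in untreated REC1 (-0.81). TYMS fell in REC1 with all 6 antibodies, the isotype aside, between -0.99 with the anti-IgM fragment and -0.29 with rituximab, which was -0.20 against the isotype arrays (adjusted p = 0.254), and passed in OciLy18 with none. The reductase subunits RRM1 and RRM2 moved little, at most -0.36 for RRM1 (REC1, anti-IgG) and -0.28 for RRM2 (SUDHL4, LT20). CHAF1A, the histone chaperone subunit, had 180.0, 180.0 and 175.5 with the fragment, against 310.8, 352.5 and 252.9 in untreated OciLy18 (-0.76). E2F1 had 89.4, 108.0 and 105.3 with anti-IgM, against 158.5, 160.2 and 174.4 in untreated REC1, while CDC25A did not pass in any REC1 comparison and was lower in OciLy18 with anti-IgM (-0.59).

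The responses of the lines were tested against each other in 1 limma fit of all 96 arrays, with 44 replication genes and 9090 genes in all. In these counts, to fall more or less is to have a more or less negative change, also where a gene rose in a line. For anti-IgM, 28 of the 44 fell more in REC1 than in Z138 and 2 less, beside 31.1% and 17.2% of all genes, and 28 fell more in REC1 than in SUDHL4, beside 28.7%. In OciLy18, 30 fell more than in SUDHL4 (15.8% of all genes) and 29 more than in Z138 (13.8%), with 0 in the other direction. Against OciLy18, REC1 had 4 genes with a more negative change and 8 with a less negative or positive one, beside 23.8% and 18.1%, and SUDHL4 minus Z138 gave 0 and 5, beside 9.92% and 6.67%.

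Between REC1 and OciLy18 the median difference of changes over the 44 was 0.03, and single genes differed in both directions. The 4 that fell more in REC1 were TYMS (difference of changes -0.67, adjusted p = 1.58e-09), CDC7 (-0.63, adjusted p = 0.00015), PRIM1 (-0.61, adjusted p = 7.96e-08) and RFC1 (-0.52, adjusted p = 0.00536). RFC3 (0.84, adjusted p = 5.6e-10), CDC25A (0.58), CDC6 (0.45), GINS2 (0.42), MCM10 (0.41), RFC5 (0.33), GMNN (0.28) and POLE2 (0.23) had the more negative change in OciLy18. RFC3 did not fall in REC1. Each line has its own untreated arrays, so lists can be set side by side: 27 genes were lower with anti-IgM in both, of 31 in REC1 and 38 in OciLy18. That is 64.3% of the 42 tested in both, where 16.4% of 6952 genes in all were lower in both, a description with no test. CDC7, CDT1, GINS1 and ORC3 were lower in REC1, OciLy18 and Z138, 4 genes of 31, 38 and 8 (9.52% of 42, beside 6.23% of 6577 genes in all). Of these, GINS1 (-0.12, adjusted p = 0.119) and CDT1 (-0.28, adjusted p = 0.0807) in Z138 did not pass by limma against the isotype arrays. With anti-IgG, 8 genes were lower in all 4 lines, of 33 in REC1, 24 in OciLy18, 18 in Z138 and 27 in SUDHL4: CDC7, PRIM1, POLE2, POLD3 and MCM2 to MCM5 (19% of 42, beside 4.2% of 6161 genes in all). Against the isotype arrays MCM5 in SUDHL4, POLD3 in OciLy18 (0.12) and MCM4 in Z138 (0.01) had no negative change. Among the changes that stayed negative but did not pass by limma were MCM2 and MCM3 in SUDHL4 and MCM5 in Z138 (-0.11, adjusted p = 0.0638).

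For anti-IgG, REC1 fell more than Z138 in 25 of the 44 genes (24.6% of all genes), than SUDHL4 in 20 with 3 the other way (21.3% and 22.1%), and than OciLy18 in 15 with 2 the other way (25.6% and 16.7%). For LT20 the numbers were 17 against Z138 (17.7%), 13 and 5 against SUDHL4 (15.1% and 23.6%), and 11 and 2 against OciLy18 (15.3% and 19.3%). PRIM1 fell more in REC1 than in Z138, SUDHL4 and OciLy18 with anti-IgG (differences -0.67, -0.47 and -0.75) and with LT20 (-0.65, -0.40 and -0.46). CDC7 with LT20 fell more in REC1 than in Z138 (-0.79) and OciLy18 (-0.67), and its difference from SUDHL4 was -0.11 (adjusted p = 0.566). All these line differences are between changes from untreated cells. In REC1 the isotype antibody itself lowered CDC7 and PRIM1, while in the other lines it moved no replication gene past the test. How much of a line difference the isotype antibody shares was not tested.

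Antibody forms were compared within a line. Whole anti-IgM and its fragment, which differ in the Fc part and, by the study's methods, in dose, gave few differences, as the fragment minus the whole antibody. In REC1, CDC6 (-0.52, adjusted p = 0.0399), CDT1 (-0.47), CHAF1A (-0.48) and TYMS (-0.26) were lower with the fragment, 4 of 43 beside 2.87% of all genes. Leaving out 1 array, whichever of the 6 it was, left 1 or 2 genes past the test in either direction. CDC6 had 223.5, 255.8 and 260.6 with the fragment, 375.5, 372.1 and 313.0 with whole anti-IgM and 382.7, 390.3 and 476.9 in untreated cells. Only the fragment arrays were well below the others. In OciLy18 FEN1 alone was higher with the fragment, by 0.53 (95% interval 0.41 to 0.66, adjusted p = 1.95e-05), beside 2.02% of all genes. In Z138 FEN1 was higher by 0.30 (adjusted p = 0.00196, beside 4.5% of all genes), with 2282, 2391 and 2110 with the fragment, 1721, 1971 and 1816 with whole anti-IgM and 1692, 1569 and 1657 in untreated cells, while TK1 (-0.36) and RRM1 (-0.15) were lower, beside 4.87%. In SUDHL4 0 of 43 passed by limma, 8 at an unadjusted p under 0.05, and FEN1 had a difference of 0.17 (95% interval 0.01 to 0.32).

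LT20 and rituximab bind the same protein. LT20 minus rituximab was lower in PRIM1 (-0.39, 95% interval -0.55 to -0.22), RPA2 (-0.39) and MCM5 (-0.30) in REC1, 3 of 43 beside 4.56% of all genes. Without LT20 replicate 1 or rituximab replicate 2, 1 gene passed in either direction. In SUDHL4 it was higher in TYMS alone (0.22), beside 0.195% of all genes. That call was lost without LT20 replicate 2 or 3 or rituximab replicate 1 or 2, and 3 genes passed without LT20 replicate 1. Between the rituximab fragment and rituximab in REC1 0 of 43 genes passed by limma, 0 at an unadjusted p under 0.05, beside 0% of all genes, and CDC7 had a difference of 0.01 (95% interval -0.25 to 0.27). Anti-IgG minus anti-IgM in REC1 passed in 0 of 43 by limma, 4 at an unadjusted p under 0.05, with 0.17 for CDC7 (95% interval -0.09 to 0.44).

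Anti-IgM minus LT20 in REC1, the receptor against CD20, was lower in 9 genes and higher in 1, RRM2 (0.18), beside 15.5% and 8.35% of all genes. CDT1 (-0.63, adjusted p = 0.00049), CDC7 (-0.53) and PRIM1 (-0.49) were among the 9, and 6 genes in all passed without LT20 replicate 2 or 3. In OciLy18 the anti-IgG change was smaller than the anti-IgM change in 9 genes (positive differences, beside 6.08% of all genes), with CDT1 (0.80) and GINS2 (0.45) among them. Counted in either direction, 4 genes passed without anti-IgG replicate 1 and 5 without anti-IgG, anti-IgM or untreated replicate 2. Compared directly, which leaves the untreated triplicates out, the treated arrays gave 34 in either direction. The share of all genes for that direct comparison is not given here. In SUDHL4 anti-IgG minus anti-IgM was lower in 18 genes and higher in 1, GINS3 (0.56), beside 29.7% and 15.9% of all genes. ORC3 (-1, adjusted p = 0.000406), POLE2 (-0.82, adjusted p = 2.56e-07) and PRIM1 (-0.71, adjusted p = 2.34e-07) were among the 18.

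In untreated cells, fewer of the replication genes than of all genes were more than 2-fold apart between lines. These were 2 of 44 in REC1 minus Z138 (24.9% of all genes), 6 in REC1 minus SUDHL4 (26.4%), 5 in REC1 minus OciLy18 (24.3%), 1 in OciLy18 minus SUDHL4 (20.4%), 0 in OciLy18 minus Z138 (16.3%) and 2 in SUDHL4 minus Z138 (21.6%). RFC3, a small clamp loader subunit, was low in REC1, with 606.9, 527.2 and 613.5, against a median of 1547 in OciLy18 (1405 to 1646), 2119 in Z138 (1854 to 2427) and 2181 in SUDHL4 (2101 to 2285), 6 arrays each. REC1 was 3.65-fold below Z138 in RFC3 (adjusted p = 1.52e-15). POLA1, the catalytic subunit of polymerase alpha, was likewise low in REC1 (115.7, 139.9 and 156.1), with medians of 400.2 in OciLy18, 338.7 in Z138 and 313.1 in SUDHL4, and CDC7 in REC1 was 2.21-fold below OciLy18. CDC25A and MCM10 were higher in REC1 than in SUDHL4 (2.32-fold and 2.13-fold). POLE was lowest in SUDHL4, with a median of 61.95 (43.04 to 116.85), and 2.97-fold below Z138.

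The 2 untreated triplicates of a line differed from each other in many of these genes. Replicates 4 to 6 minus 1 to 3 were higher in 13 and lower in 7 of 43 in SUDHL4 (25.7% and 23.4% of all genes), 16 and 4 of 43 in OciLy18 (15.4% and 19.6%), and 9 and 16 of 44 in Z138 (21.8% and 20.2%). RFC2 was higher in replicates 4 to 6 by 1.08 in SUDHL4, 1.17 in OciLy18 and 0.68 in Z138, and CDC6 by 0.74, 0.40 and 0.30, while ORC2 (-0.71) and LIG1 (-0.69) were lower in Z138. A gene's anti-IgG change in these lines therefore rests on an untreated triplicate that is not the one used for the other antibodies. The isotype arrays were compared with replicates 1 to 3, and no replication gene differed between them past the test in these lines. Anti-IgG set against the isotype arrays can thus carry the difference between the triplicates, and antibody and triplicate cannot be told apart there. Of 254 calls in these 3 lines, 28 turned sign against the other triplicate, 8 of them past the test the other way, and 26 more no longer passed. Of 397 calls in the 4 lines, 16 turned sign against the isotype arrays, 4 of them past the test, and 104 more no longer passed.

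In a second list of replication and S phase genes, 56 tested in each line but Z138 (55), 34 were lower and 2 higher in OciLy18 with anti-IgM (median -0.34), where 28.9% of all genes were lower. In REC1 31 were lower and 9 higher (median -0.35, beside 34% of all genes lower), in Z138 18 and 8 (median -0.04, beside 19.3%) and in SUDHL4 3 and 7 (median 0.01, beside 5.13%). With anti-IgG in SUDHL4 28 were lower and 4 higher (median -0.20, beside 36.1%). The mitotic genes had 21 of 31 lower in OciLy18 with anti-IgM (median -0.30), 29 of 32 in REC1 (median -0.86) and 28 of 32 in SUDHL4 with anti-IgG (median -0.50). The medians of the mitotic genes were the lower ones in REC1 and SUDHL4 and that of the replication genes in OciLy18, a difference that was not tested.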

How the data were processed

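Messenger RNA was measured on 96 Affymetrix HG-U133 Plus 2.0 arrays, 32 groups of 3. The deposited values are linear signal intensity per probe set, made by the authors with MAS5 per the submitters' processing notes and scaled to a common total. A deposited table of group means and change factors holds the authors' own comparisons and was not used, nor was the list of which arrays make up each triplicate. In SUDHL4 and OciLy18 that table's means of the 2 untreated triplicates stand under each other's names, going by the single arrays, so which untreated arrays belong with which antibodies rests here on the labels' replicate numbers, and the change factors were set against the same untreated arrays as here. Gene names come from the platform annotation: 41097 probe sets have 1 symbol, 1801 several and 11777 none.

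Signals were floored at 1 and taken to log2 with no further normalization. In each line a probe set was tested if its mean was above 100 in at least 1 group, and limma 3.58.1 in R 4.3.3 (with the data.table package, version 1.17.8) was fitted to all groups of the line with a variance trend and Benjamini-Hochberg adjustment over all probe sets tested (between 13069 in SUDHL4 and 14068 in REC1). A gene passed at an adjusted p under 0.05, and 2-fold calls also needed a change over 2-fold and a mean above 100 in 1 of the 2 groups, after the study's filter. Intervals are 1.96 standard errors either side. Line differences came from 1 fit of all arrays. The fits were tested on simulated data.

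The 44 genes, the role groups, the mitotic list, the second replication list and the marker lists were chosen with earlier results of these data known. Named are the genes past 2-fold and, in comparisons with enough changes, the 2 of each role with the smallest p, and others were chosen after their values were seen. Alternatives were quantile normalization, filters, an added 16, other untreated or isotype arrays as reference, other probe sets, a replicate block and leaving out each array. The number of arrays limits the precision. Some genes of those lists are not analysed here.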

Additional observations from a re-analysis of the deposited data

Results flagged for a closer look

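The response to an antibody differed between lines by a test of the difference itself, 1 fit of all arrays with the change in each line. To fall more is here to have a more negative change, also where a gene rose in a line. For anti-IgM, 28 of the 44 genes fell more in REC1 than in Z138 and 2 less, beside 31.1% and 17.2% of all genes. Against SUDHL4, 28 fell more in REC1 (28.7%), and against OciLy18 4 fell more and 8 less (23.8% and 18.1%). In OciLy18, 30 fell more than in SUDHL4 (15.8%) and 29 more than in Z138 (13.8%), with 0 in the other direction. For anti-IgG, 25 fell more in REC1 than in Z138 (24.6% of all genes). Against SUDHL4 the numbers were 20 more and 3 less (21.3% and 22.1%), and against OciLy18 15 and 2 (25.6% and 16.7%). For LT20 they were 17 more against Z138 (17.7%), 13 and 5 against SUDHL4 (15.1% and 23.6%), and 11 and 2 against OciLy18 (15.3% and 19.3%).

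CDC7 had a difference of changes with anti-IgM of -0.95 between REC1 and Z138, -1.37 between REC1 and SUDHL4, -0.63 between REC1 and OciLy18, -0.75 between OciLy18 and SUDHL4 and 0.42 between SUDHL4 and Z138. PRIM1 had -1.11, -1.37, -0.61 and -0.75 over the first 4 of these pairs, -0.49 between OciLy18 and Z138 and 0.26 between SUDHL4 and Z138. CDT1 had -0.53 between REC1 and Z138. These are differences between changes from untreated cells, and in REC1 the isotype antibody itself lowered CDC7 and PRIM1.

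GINS1 stood apart on 1 untreated SUDHL4 array: replicate 5 read 1079.84 where the other 5 lay between 904.79 and 969.53. It was the only 1 of 132 groups of 6 untreated arrays to pass Dixon's limit, where chance passes about 1 in 20.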

How the results depend on the processing

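Most counts held within 1.5 times. They are counts of lower genes, except that where antibodies were compared with each other within a line they are of genes past the test in either direction. With isotype arrays as reference the count was 10 for LT20 in REC1, 1 for rituximab, 3 for its fragment, 15 for anti-IgG in OciLy18 and 7 for LT20 there. With quantile normalization it was 18 for rituximab in REC1, 6 for LT20 in OciLy18, 9 for anti-IgM and 20 for LT20 in REC1 against OciLy18, 2 for fragment minus anti-IgM in OciLy18, 1 in SUDHL4 and 5 in Z138, and 5 for LT20 minus rituximab in REC1 and 0 in SUDHL4. Without the signal filter 9 were lower with the rituximab fragment in REC1 and 5 with LT20 in OciLy18. LT20 in OciLy18 gave 20 against all 6 controls and 24 against the other triplicate, and anti-IgM in Z138 gave 14 against the other triplicate. Comparing treated arrays directly gave 34 for anti-IgG minus anti-IgM in OciLy18 and 31 in SUDHL4. With untreated replicates 1 to 3 only, 3, 2 and 4 genes were over 2-fold apart in OciLy18 minus SUDHL4, OciLy18 minus Z138 and SUDHL4 minus Z138. The cause was not tested. The share of all genes in these settings, the isotype reference aside, is not given here, nor is it with 1 array left out. These counts therefore describe the replication genes alone.

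Leaving out 1 array gave 4 to 11 for LT20 in OciLy18, 4 to 9 for anti-IgG minus anti-IgM there, 1 to 2 for fragment minus anti-IgM in OciLy18 and in REC1, 1 to 4 for LT20 minus rituximab in REC1 and 0 to 3 in SUDHL4, 6 to 9 for anti-IgM minus LT20 in REC1, 8 to 13 for the rituximab fragment, and 1 to 2, 0 to 1 and 1 to 2 for the same 3 pairs of untreated lines. Of 1254 values of named genes with 1 array left out, 1146 stayed past the threshold, 108 did not, and 0 changed sign. CDC7 in REC1 and ORC3 in Z138 and SUDHL4 read near 100 on treated arrays, the limit set on mean signal.

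Against the other triplicate 28 called changes turned sign. These were in SUDHL4 CDC25A (-0.06), MCM5 (-0.17) and RFC2 (-0.66) with the fragment, CDC25A (0.14), ORC1 (0.19), CDC6 (0.53), MCM5 (0.22), MCM7 (0.60), POLA1 (0.11) and TK1 (0.14) with anti-IgG, POLE and RPA1 with LT20 and with rituximab, and GMNN with rituximab. In OciLy18 they were POLD3 (0.06), RRM2 (0.15), TK1 (0.01), CDC6, GINS1, ORC1 and RFC4 with anti-IgG, and in Z138 ORC6 (-0.04) with anti-IgM and LIG1 (0.17), PRIM1 (0.07), MCM3 (0.15), MCM6 and ORC2 with the fragment. Against isotype arrays 16 turned: with anti-IgG CDC25A (0.27), ORC1 (0.18), CDC6 (0.59), MCM5 (0.17), MCM7 (0.62), ORC6, POLA1 (0.29) and TK1 in SUDHL4, POLD3 (0.12), RRM2 (0.13), GINS1, ORC1 and RFC4 in OciLy18 and CDT1 (0.15) and MCM4 in Z138, and RRM1 with the rituximab fragment in REC1.

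Replicate numbers did not pair the samples: deviations correlated between -0.34 and 0.36, over 0.1 in every pair in 2 of 22 comparisons. A replicate block over 13 comparisons raised the count in 3, by at most 1 (37 for the fragment in OciLy18, 9 for anti-IgM and 20 for the fragment in Z138).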
